A study of Rattus norvegicus with 10 samples.

Results

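Mesothelial marker genes were examined in lungs of rats that lack Cmg2 and of wild-type rats. The genes were taken by symbol from a list of 10 markers of the mesothelium. Of the 10, 6 were among the 1319 genes of the table analysed, each of which has an unadjusted p-value under 0.05 in the authors' deposited table. That table holds 6.63% of the genes that the authors adjusted over. The list was chosen with earlier results of these data known, so nothing is read from the 6 of 10. Msln, Upk3b, Lrrn4 and Wt1 are described here gene by gene. RNA sequencing had been run on flash-frozen lung of 8-week-old Sprague Dawley rats, with 5 libraries from Cmg2-KO (CMG2-/-) rats and 5 from WT rats. CMG2, also called ANTXR2, sits on the cell surface, where it takes up anthrax toxin and binds proteins of the extracellular matrix. Strain, age and tissue were shared by both genotypes. The labels do not say how the Cmg2 allele was made, whether each library came from its own animal, or the sex of the animals, so the spread between libraries may be partly technical. The transcript of Cmg2 itself was not analysed here and gives no check of the labels. The lung marker Sftpb, which encodes surfactant protein B, was high in every library. Levels are given as scaled counts (reads per gene divided by the authors' size factor of each library). Sftpb had from 42132.5 to 48747 scaled counts in Cmg2-KO and from 45665 to 65237 in WT. Its mean was lower in Cmg2-KO, at 45493 against 54112 in WT. Like the rest of the table it was selected on this difference, so it is no neutral reference.

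The mesothelium is a single layer of flat epithelial cells that covers the lung surface as the visceral pleura and lines the chest wall. It arises from mesoderm, keeps the pleural surfaces gliding over each other, and is a small part of the lung's cells. Mesothelin (Msln) is a surface glycoprotein anchored to the membrane by a lipid. Upk3b belongs to the uroplakins, membrane proteins first known from the bladder lining. Lrrn4 is a transmembrane protein with leucine-rich repeats, studied in the mouse nervous system and also found in mesothelium. Wt1 is a zinc finger transcription factor that the mesothelium needs during development in mice.

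Promoter windows are shown for 3 of the 4 genes, since the promoter set used here held no entry for Msln. Whether the genes share control at their promoters was not tested. Each window runs from 250 bases before to 50 bases after the annotated start, 5′ to 3′ on the gene's strand, from RefSeq on build GRCr8. The Upk3b window is chr12:26274191-26274490 (minus strand), the Lrrn4 window chr3:140603937-140604236 (minus strand) and the Wt1 window chr3:112021759-112022058 (plus strand). Capitals mark matches to any of 6 motifs.
Upk3b: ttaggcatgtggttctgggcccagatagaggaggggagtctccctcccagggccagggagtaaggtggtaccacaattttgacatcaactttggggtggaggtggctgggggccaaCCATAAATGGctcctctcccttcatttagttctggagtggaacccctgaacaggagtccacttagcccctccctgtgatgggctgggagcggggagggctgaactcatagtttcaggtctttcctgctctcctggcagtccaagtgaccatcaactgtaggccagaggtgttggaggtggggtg
Lrrn4: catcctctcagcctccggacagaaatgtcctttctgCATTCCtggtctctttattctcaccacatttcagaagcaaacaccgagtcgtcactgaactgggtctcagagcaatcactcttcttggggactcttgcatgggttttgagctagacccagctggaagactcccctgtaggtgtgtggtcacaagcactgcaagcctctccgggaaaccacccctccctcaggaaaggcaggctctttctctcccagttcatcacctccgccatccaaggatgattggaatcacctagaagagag
Wt1: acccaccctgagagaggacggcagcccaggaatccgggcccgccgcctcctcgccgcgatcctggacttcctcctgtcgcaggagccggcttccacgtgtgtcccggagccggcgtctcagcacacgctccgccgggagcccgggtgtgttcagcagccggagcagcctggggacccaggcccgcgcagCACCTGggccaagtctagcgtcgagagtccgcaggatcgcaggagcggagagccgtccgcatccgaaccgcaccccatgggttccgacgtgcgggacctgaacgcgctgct

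The motifs searched on both strands were TATAAA for the core promoter element, GGGCGG for the Sp1 element and CACCTG, a form of the E-box. Also searched were GGAATG, the core bound by TEAD factors, GCGGGGGCG, bound by EGR factors and WT1, and the CArG box, bound by serum response factor. Other forms of the E-box, such as CACGTG, were not searched, and those in the windows are not marked. The CArG box was added after the sequences were seen. The motifs do not overlap each other in these windows. No motif was found in more than 1 of the 3 windows. Upk3b held a CArG box at position 117, counted from the 5′ end of the window, and 1.64% of 33469 RefSeq promoter windows held one. Lrrn4 held the reverse of GGAATG at position 37 (14.2% of all windows), and Wt1 held CACCTG at position 190 (18.8%). The core promoter element, the Sp1 element and the EGR and WT1 element, found in 14.2%, 33.1% and 2.73% of all windows, were in none of the 3. Base composition also differed. G and C made up 71% of the Wt1 window, which has 34 CG dinucleotides. The Upk3b window was 56.7% G and C with 1 CG dinucleotide, and the Lrrn4 window 52.3% with 5.

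All 4 genes had higher means in Cmg2-KO than in WT lung, by 1.51 to 1.73 times, and at each of them 4 Cmg2-KO libraries lay above every WT library. The fifth, Cmg2-KO 1, lay within the WT range at all 4. The genes were selected on their difference between the genotypes in these libraries, through the authors' p-values and earlier results, so these differences are a description with no test behind them. In whole lung, more mesothelial cells and more RNA per mesothelial cell cannot be told apart.

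Msln (chromosome 10, 15119663 to 15125408, minus strand, as in the table, whose build is not given in the sources used here) was the most abundant of the 4. It had 1316, 2719, 2074, 2913 and 2636 scaled counts in Cmg2-KO 1 to 5, against 1167, 2066, 1245, 1584 and 1347 in WT 1 to 5. Cmg2-KO 3, at 2074, cleared the highest WT library, WT 2, by less than 10 scaled counts. Cmg2-KO 1 stood below 3 of the WT libraries. The log2 fold change of Msln was 0.63 ± 0.23 (moderated SE, n = 5 per genotype). Each SE of a log2 fold change given here was moderated, that is, drawn towards the spread of the other genes of the table. Those genes were kept for a p under 0.05, so each such SE may be too small.

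Upk3b (chromosome 12, 23676152 to 23682381, minus strand) showed the smallest spread within each genotype. It had 574, 920, 1029, 907 and 981 scaled counts in Cmg2-KO 1 to 5, against 443, 691, 593, 654 and 464 in WT 1 to 5. The 4 higher Cmg2-KO libraries stood clear of the highest WT library, WT 2. Its log2 fold change was 0.63 ± 0.18 (SE, n = 5 per genotype).

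Lrrn4 (chromosome 3, 125523781 to 125533600, minus strand) had the highest fold change of the 4. It had 361, 672, 658, 497 and 629 scaled counts in Cmg2-KO 1 to 5, against 259, 481, 340, 398 and 155 in WT 1 to 5. The WT libraries spread over a 3.11-fold range, with WT 5 lowest, whereas the Cmg2-KO libraries spread over 1.86-fold. The log2 fold change was 0.85 ± 0.29 (SE, n = 5 per genotype).

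Wt1 (chromosome 3, 95133713 to 95180564, plus strand) was the least abundant. It had 77.3, 140, 122, 119 and 139 scaled counts in Cmg2-KO 1 to 5, against 71.1, 110, 76.6, 106 and 32.6 in WT 1 to 5. WT 5 was again far below the other WT libraries. The 31 reads behind that value give an exact Poisson 95% interval of 22.2 to 46.3 scaled counts, which covers counting error only and ends below every other library. The log2 fold change was 0.67 ± 0.32 (SE, n = 5 per genotype), and without WT 5 it was 0.39 ± 0.21 (SE).

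**Figure D1:**
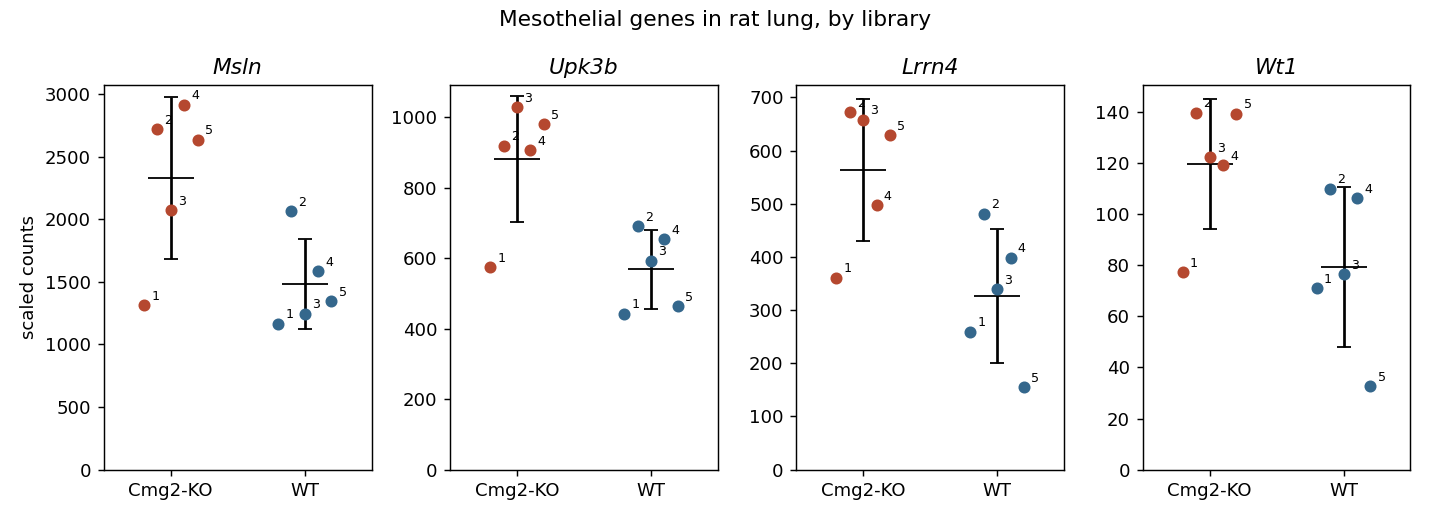
Scaled counts of Msln, Upk3b, Lrrn4 and Wt1 in each library (points, numbered by replicate), with Cmg2-KO left and WT right in each panel, and the mean and SD in black. In each panel 4 Cmg2-KO points lie above every WT point, and Cmg2-KO 1 lies among the WT points.

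Per kilobase of gene model, the order of levels was Msln, Upk3b, Lrrn4, Wt1 in all 10 libraries. In Cmg2-KO the levels were 1068 ± 297, 742 ± 150, 219 ± 51.7 and 45.6 ± 9.70 scaled counts per kilobase (SD, n = 5). In WT they were 679 ± 166, 478 ± 93.7, 127 ± 49.0 and 30.2 ± 11.9 (SD, n = 5). The ranges of Msln and Upk3b over libraries overlapped within each genotype, whereas Upk3b, Lrrn4 and Wt1 did not overlap with one another within either genotype. The per-kilobase ratio of Msln to Upk3b was 1.43 ± 0.26 in Cmg2-KO and 1.42 ± 0.20 in WT (SD, n = 5). That of Lrrn4 to Wt1 was 4.81 ± 0.45 in Cmg2-KO and 4.28 ± 0.48 in WT. WT 5 broke the proportion between the more and the less abundant pair. Its ratio of Upk3b to Lrrn4 was 6.48, while that ratio averaged 3.42 ± 0.35 in Cmg2-KO and 4.12 ± 1.35 in WT with WT 5 included.

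Of the 6 list genes in the table, 6 had a positive log2 fold change, where 48.2% of the table's genes did. Their median was 0.63 (range 0.43 to 0.85), against -0.15 over the 1308 genes fitted and 0.33 over the 631 of those that were higher in Cmg2-KO. With limma's moderated test, 0 of the 6 had an adjusted p under 0.05 (background 0.229% of genes in either direction) and 5 of the 6 had an unadjusted p under 0.05 (background 79.1%). With edgeR on the whole reads recovered from 9 libraries, 0 of the 6 passed with adjustment (background 0.0768% of 1302 genes) and 4 without (background 63.3%). By the authors' deposited table, adjusted p-values were under 0.05 for 0 of the 6 (background 5.46% in either direction), and stood at 0.0734 for Upk3b, 0.214 for Msln, 0.262 for Lrrn4 and 0.719 for Wt1. Since the same contrast chose these genes, nothing is read from these counts.

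Taking the 4 genes together, the mean log2 difference from the WT mean was 0.92, 0.81, 0.78 and 0.91 in Cmg2-KO 2 to 5 and 0.06 in Cmg2-KO 1. In WT 1 to 5 it was -0.23, 0.51, 0.02, 0.32 and -0.62. The WT libraries therefore covered more than 1 log2 unit, a wider span than the gap between the genotype means of 0.69. The 5 Cmg2-KO libraries had an SD of 0.36 and the 5 WT libraries an SD of 0.45. In 0 of the 6 list genes did every Cmg2-KO library exceed every WT library (background 9.25% of the table). Cmg2-KO 2 to 5 exceeded every WT library in 4 of the 6 (background 13.5%). Cmg2-KO 1 was the lowest Cmg2-KO library at 6 of the 6 genes (background 18.6%), and WT 2 the highest WT library at 6 of the 6 (background 20.6%). Cmg2-KO 1 and WT 2 were singled out from these values. The genes were selected on this contrast and vary together, so nothing is read from these counts.

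**Figure D2:**
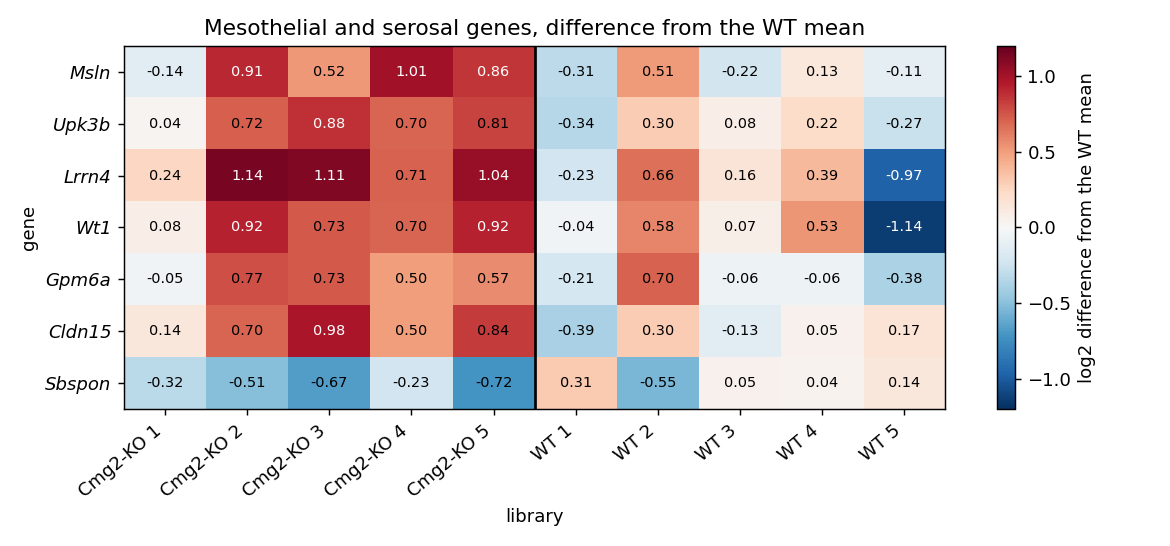
Log2 difference of each library (columns, Cmg2-KO left of the line and WT right) from the WT mean for 4 mesothelial markers and 3 further serosal genes (rows), with red above and blue below the WT mean. Cmg2-KO 2 to 5 are between 0.52 and 1.14 at the 4 markers, Cmg2-KO 1 is between -0.14 and 0.24, and WT 5 is at -0.97 for Lrrn4 and -1.14 for Wt1.

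Since the genes were selected on this contrast, nothing is read from all 4 log2 fold changes staying positive with any library left out. Those of Msln, Upk3b and Wt1 were 0.82 ± 0.17, 0.77 ± 0.14 and 0.82 ± 0.32 (SE) without Cmg2-KO 1. Lrrn4 was 1.00 ± 0.29 without Cmg2-KO 1, 1.01 without WT 2 and 0.61 ± 0.22 without WT 5. Wt1 had the lowest of these values, 0.39 without WT 5.

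**Figure D3:**
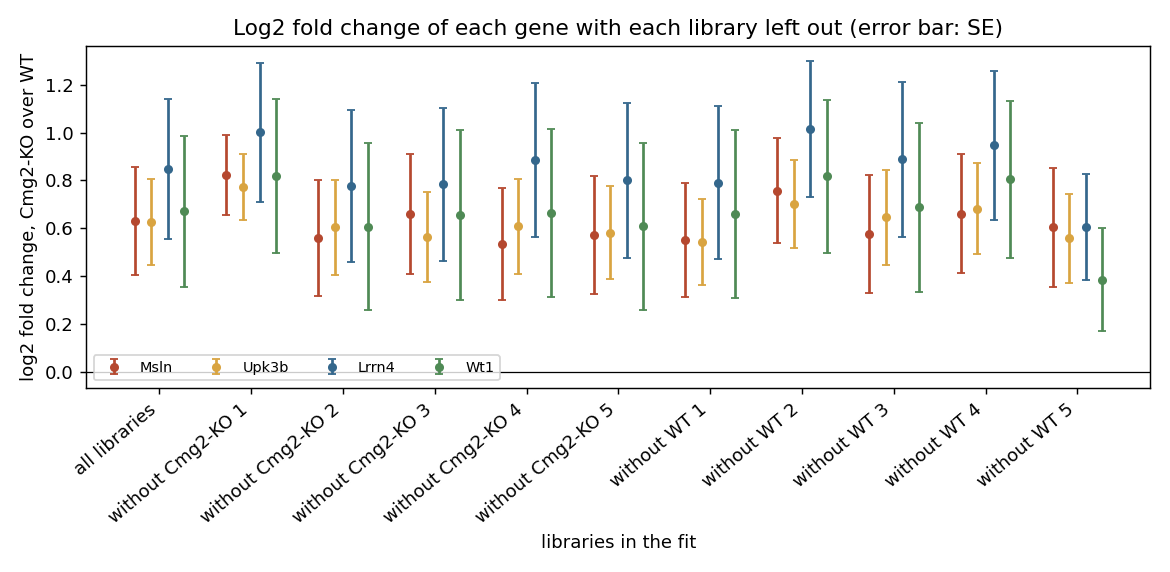
Log2 fold change, Cmg2-KO over WT, of the 4 genes with all libraries and with each library left out in turn. Points are fitted values and bars are moderated SE. Every point lies above 0, from 0.39 for Wt1 without WT 5 to 1.01 for Lrrn4 without WT 2.

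How the genes varied within a genotype is separate from the difference between genotypes, and was tested across the 10 libraries after each genotype's mean had been subtracted. That the markers vary together on average was already known from earlier results of these data. The permutations shuffled the 10 deviations freely across both genotypes. Subtracting the means ties the deviations within a genotype to each other, so these p-values are approximate. Lrrn4 and Wt1 had the highest correlation of the 6 pairs, with Pearson r = 0.96 (permutation test, p = 2e-05, the smallest that 100000 two-sided permutations can give; adjusted p = 0.00012 over the 6 pairs) and Spearman rho = 0.96 (permutation test, adjusted p = 0.00048). Without WT 5 and Cmg2-KO 1, the 2 libraries farthest from the median of Lrrn4, r was 0.87. Upk3b followed Lrrn4 with r = 0.85 (permutation test, p = 0.00646, adjusted p = 0.0173) and rho = 0.90 (permutation test, p = 0.00072, adjusted p = 0.00216). It followed Wt1 with r = 0.77 (permutation test, p = 0.0263, adjusted p = 0.0394) and rho = 0.83 (permutation test, p = 0.00514, adjusted p = 0.0103). Without Cmg2-KO 1 and WT 1 these r were 0.95 and 0.93.

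The r of Msln with each other marker was lower without the 2 libraries farthest from its median. Leaving out extreme libraries narrows the range, and differences between correlations were not tested. Its r with Upk3b was 0.80 (permutation test, p = 0.00864, adjusted p = 0.0173), but rho was 0.60 (permutation test, p = 0.0735, adjusted p = 0.0752). Without Cmg2-KO 1 and WT 2 that r was 0.51. Within a single genotype it was 0.82 in Cmg2-KO and 0.78 in WT (n = 5 each). The r of Msln was 0.61 with Lrrn4 (permutation test, p = 0.0795, adjusted p = 0.0954; rho = 0.60, p = 0.0752) and 0.60 with Wt1 (permutation test, p = 0.0962, adjusted p = 0.0962; rho = 0.62, p = 0.0606). Neither passed. Without Cmg2-KO 1 and WT 2 they were 0.30 and 0.36. Msln was close to its genotype mean in WT 5, the library in which Lrrn4 and Wt1 were lowest.

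**Figure D4:**
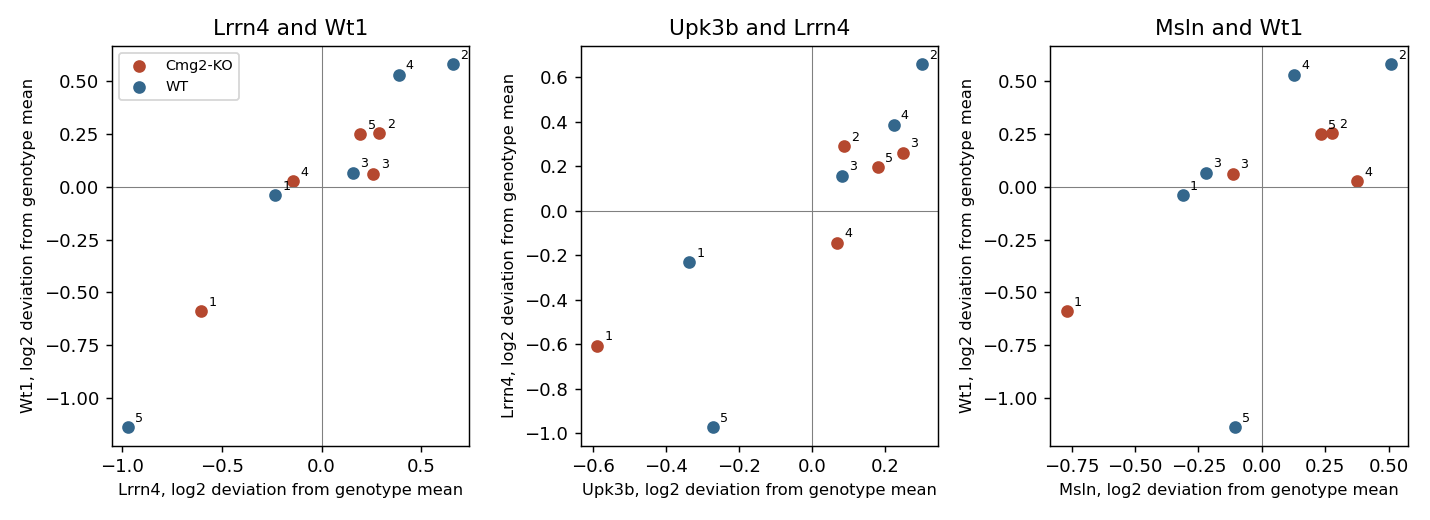
Log2 deviation of each library from its genotype mean for Lrrn4 against Wt1, Upk3b against Lrrn4, and Msln against Wt1 (Cmg2-KO red, WT blue, numbered by replicate). Cmg2-KO 1 is low on both axes of every panel, and WT 5 is low for Lrrn4 and Wt1 but near 0 for Msln.

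A further list of 30 genes of mesothelial and serosal cells had 3 members in the table, 2 higher and 1 lower in Cmg2-KO. Of all genes that the authors adjusted over, 6.63% were in the table, and the 3 of 30 was not tested against that share. None of the 3 had an adjusted p under 0.05 in limma, in edgeR or in the authors' deposited table, and 3 by limma and 2 by edgeR had an unadjusted p under 0.05, where 79.1% and 63.3% of all genes tested did, so these counts are near the background. Gpm6a, a membrane glycoprotein first known from neurons and also found in mesothelium, had 894, 1575, 1536, 1308 and 1367 scaled counts in Cmg2-KO 1 to 5. In WT 1 to 5 it had 797, 1506, 888, 888 and 710. As with the 4 markers, Cmg2-KO 1 was the lowest of its genotype and WT 2 the highest of its own, and the groups overlapped. Cldn15, a claudin of tight junctions, had 285, 423, 514, 369 and 466 scaled counts in Cmg2-KO 1 to 5, against 198, 320, 236, 269 and 291 in WT 1 to 5. Again Cmg2-KO 1 alone fell within the WT range. Sbspon, a secreted matrix protein with a thrombospondin domain, went the other way. It had 85.2, 74.7, 66.8, 90.7 and 64.5 scaled counts in Cmg2-KO 1 to 5, against 133, 72.6, 111, 110 and 118 in WT 1 to 5, where WT 2 was lowest. The log2 fold changes were 0.50 ± 0.21 for Gpm6a, 0.63 ± 0.17 for Cldn15 and -0.49 ± 0.18 for Sbspon (SE, n = 5 per genotype).

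Every gene of the table with a mean of at least 10 scaled counts was compared with the mean within-genotype deviation of the 4 markers over the 10 libraries. Over these 1182 genes the median Pearson r was 0.01, with quartiles at -0.26 and 0.28. Outside the list genes, 9 of 1176 had r of at least 0.8. The highest of these, 0.90 and 0.89, belonged to 2 gene models with provisional names. Among genes with an established symbol Gpm6a came first, with r = 0.88 and rho = 0.81. After it came the inorganic pyrophosphatase gene Ppa1 (r = 0.88), the metalloproteinase gene Pappa2 (0.86), Nsmce2 of the SMC5/6 complex (0.85), cingulin of tight junctions (Cgn, 0.84) and the retinol dehydrogenase gene Dhrs9 (0.83). The mitofusin gene Mfn2 (0.82), the carboxypeptidase gene Scpep1 (0.79), the sterol demethylase gene Cyp51 (0.79) and the cell death gene Pmaip1 (0.79) completed the 10. The last of these was lower in Cmg2-KO, at 252 ± 34.6 scaled counts against 341 ± 112 in WT (SD, n = 5), so likeness within genotype and the direction between genotypes need not go together. Cldn15 had r = 0.57 and Sbspon r = -0.65. These r were ranked over the whole table and carry no test.

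**Figure D5:**
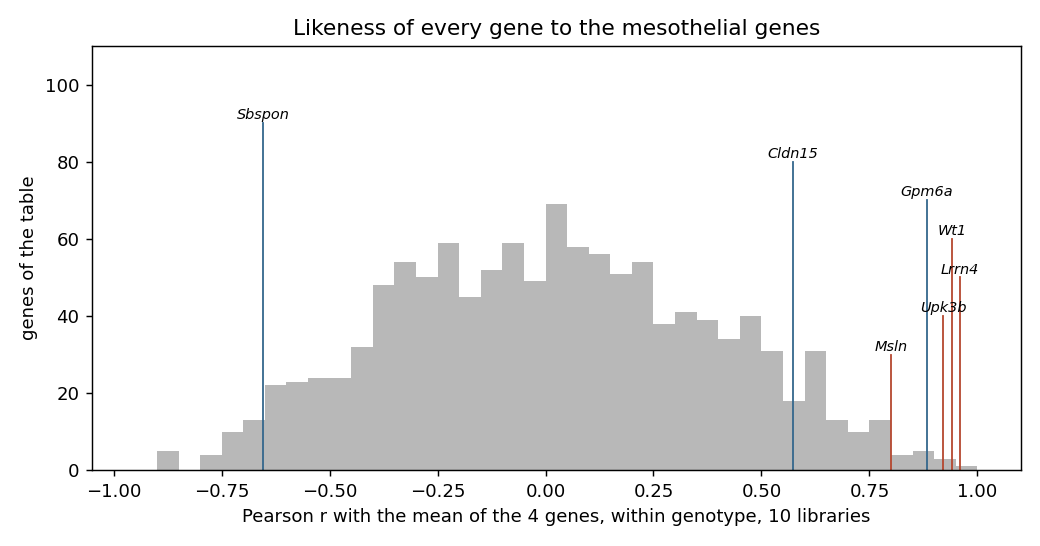
Number of genes (vertical axis) by Pearson r with the mean of the 4 markers after subtracting genotype means, over 10 libraries (grey, 1182 genes), with lines at the 4 markers (red), which are part of that mean, and at 3 further serosal genes (blue). Gpm6a lies at 0.88, beside the markers, while the median gene lies at 0.01.

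Dhrs9 and Pappa2 shared with Lrrn4 and Wt1 a low value in WT 5. Dhrs9 had 327, 814, 558, 581 and 690 scaled counts in Cmg2-KO 1 to 5, against 311, 343, 315, 462 and 58.9 in WT 1 to 5. Pappa2 had 769, 1237, 999, 1015 and 1153 in Cmg2-KO 1 to 5, against 452, 1066, 630, 550 and 199 in WT 1 to 5. In both genes WT 5 was the lowest of the 10 libraries. It was also the lowest of the 10 at Gpm6a, Ppa1, Cgn, Scpep1 and Cyp51. All of these genes were ranked by how closely they followed the markers, whose mean was lowest in WT 5. A low value there is thus partly built into the choice, and nothing is read from it.

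Mesothelium takes part in retinoid metabolism, and 3 of 16 retinoid genes were in the table, where 6.63% of all genes adjusted over were. The retinoic acid hydroxylase gene Cyp26b1 averaged 1020 ± 304 scaled counts in Cmg2-KO and 1406 ± 228 in WT (SD, n = 5), and Cyp26a1 averaged 22.6 ± 8.88 in Cmg2-KO and 9.56 ± 2.79 in WT. None of the 3 had an adjusted p under 0.05 in limma, edgeR or the authors' deposited table, and 3 had an unadjusted p under 0.05 in both limma and edgeR, again with 79.1% and 63.3% of all genes doing so. Their r with the markers lay between -0.16 and 0.24. None of 10 hyaluronan and surface lubrication genes was among the genes analysed here.

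Markers of other lung cells also differed between the genotypes, and their part in the mesothelial values was not tested. The table holds 6.63% of all genes that the authors adjusted over. How many genes of each list it holds was not tested against that share. The 9 of 17 smooth muscle genes in the table were lower in Cmg2-KO, where they summed to between 25352 and 37719 scaled counts, against 30622 to 50316 in WT. The 4 of 17 club and secretory airway genes summed to between 84396 and 176966 in Cmg2-KO and between 144340 and 196851 in WT. Scgb1a1 made up nearly all of that sum, with 84205 to 175952 in Cmg2-KO and 143906 to 195238 in WT. The 3 of 17 B and plasma cell genes were higher, summing to between 7419 and 11126 in Cmg2-KO and between 5306 and 8782 in WT. Of 20 fibroblast genes 3 were in the table, with Dcn and Pi16 lower and Gpc3 higher. They summed to between 7376 and 9055 in Cmg2-KO and between 7519 and 10461 in WT. Gpc3 was the largest part of that sum, with 5636 to 7350 in Cmg2-KO and 4867 to 5909 in WT. Lists of 15 ciliated airway and 10 alveolar type 1 genes had none in the table, alveolar type 2 genes had 2 of 12 and both lower, endothelial genes 1 of 17 and lower, and lymphatic endothelial genes 1 of 8 and higher. No gene of these lists passed an adjusted p of 0.05 in limma, edgeR or the authors' deposited table, and those with an unadjusted limma p under 0.05 numbered 7 for smooth muscle, 3 for secretory airway, 3 for B and plasma cell and 3 for fibroblast genes. These counts are near the 79.1% of all genes fitted with such a p.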

How the data were processed

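Libraries were made from total RNA with the NEBNext Ultra kit, per the labels' protocols. The submitters' processing notes name HISAT2 2.0.5 and featureCounts 1.5.0-p3. The build, the use of strand and the authors' test were not given in the sources used here. The deposited library columns hold a signal, read counts divided by 1 size factor per library (scaled counts). All values (100%) came to whole reads, within 0.02 reads, once divided by the smallest step of their library. In WT 4 that step was 1.011, the closest to 1 of the 10 libraries, and its reads were not used. The values of WT 4 also came to whole reads, so leaving it out was a choice. WT 1, at 1.016, was kept. The deposited table also gives group means, a log2 fold change, a fold (ratio), p-values and gene lengths, per the file headers.

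The table holds 1319 of about 19894 genes that the authors adjusted over, all with p under 0.05, so total depth is unknown. Libraries held 1386578 to 1531531 scaled counts in these genes, or 1289524 to 1620198 reads in 9 libraries. Reads per library numbered 1122 to 3095 for Msln, 436 to 1047 for Upk3b, 147 to 765 for Lrrn4 and 31 to 159 for Wt1.

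Genotypes were compared with limma 3.58.1 (R 4.3.3; trend and robust options), fitted to log2 of the scaled count plus 1 for the 1308 genes above 0.5 in at least 5 libraries, with Benjamini-Hochberg adjustment over 19894 genes. This scale understates the change of low genes. Each SE of a log2 fold change is limma's moderated SE. edgeR 4.0.16 with a quasi-likelihood test ran on the reads of 9 libraries, an addition made after the data were seen. Correlations used scipy 1.17.1 with permutation tests, on samples whose replicates are not known to be separate animals. The members, gene lists and tests were chosen with earlier results of these data known. Named genes were the members, up to 4 per list with the highest mean (those named in the text), and the 10 named genes with the highest r to the markers. Dhrs9 and Pappa2 were picked from those after their values were seen. A further 2 list genes are counted but not reported by name here.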

Additional observations from a re-analysis of the deposited data

Results flagged for a closer look

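Dixon's criterion was applied to log2 values of 37 genes in each genotype: the gap between an extreme library and its nearest neighbour had to exceed 0.71 of the range over the 5 libraries. It singled out 7 of 74 groups. Chance singles out about 1 in 20 independent groups, but these groups are not independent, since the genes include the markers and 10 genes picked for following them across the same libraries. Cmg2-KO 1 was apart from the other Cmg2-KO libraries at Upk3b, with 574 scaled counts against 907 to 1029, at Wt1, with 77.3 against 119 to 140, and at Mfn2, with 186 against 385 to 514. WT 5 was apart from the other WT libraries at Dhrs9, with 58.9 scaled counts against 311 to 462, and at Cyp51, with 766 against 1046 to 1137. Outside the mesothelial pattern, Cmg2-KO 4 had 1678 scaled counts of Dcn, whereas its 4 replicates had 971 to 1067. WT 1 had 195238 scaled counts of Scgb1a1 against 143906 to 152709 in the other WT libraries.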

How the results depend on the processing

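Under 18 alternatives of pseudocount, filter, scaling, replicate block, test and left-out library, each of the 4 log2 fold changes kept its direction. The genes were selected on this contrast, so a kept direction is no support for the difference. Each value moved by less than 1 SD between replicates, a wide tolerance that let Wt1 go from 0.67 to 0.39. The replicate block and the filters left the 4 log2 fold changes unchanged. With each library left out in turn they ranged from 0.54 to 0.82 for Msln, 0.54 to 0.77 for Upk3b, 0.61 to 1.01 for Lrrn4 and 0.39 to 0.82 for Wt1, and their median from 0.58 to 0.82. Under the other alternatives the median ranged from 0.63 to 0.70, and was highest with edgeR, which also lacked WT 4. The mean r over the 6 pairs of markers was 0.77 and ranged from 0.67 without Cmg2-KO 1 to 0.88 without WT 5. The number of genes past limma's adjusted threshold was 3 and less steady. It was 0 with the replicate block (899 at an unadjusted p under 0.05) and 1 with edgeR on recovered reads (824 unadjusted). It ranged from 1 to 6 with a library left out, being 1 without Cmg2-KO 1 or WT 4, 5 without WT 3 and 6 without Cmg2-KO 3 or Cmg2-KO 4. Libraries with the same replicate number share only that number. Their deviations correlated between -0.02 and 0.09 over genes, and 2 of 5 Cmg2-KO libraries correlated best with the WT library of their own number. The table holds only genes selected for this contrast, which limits every count, and Wt1 rests on the fewest reads.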
